A study of Mus musculus with 9 samples.

Results

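The regions described here are 5hmC peaks that were called in wild-type macrophages and not in Tet2 knockout macrophages, and that lie in genes holding only 1 or 2 such peaks. They were chosen from the deposited peak names: a peak on chromosomes 1 to 19 or X had to carry the merged wild-type name and no merged knockout name, had to overlap a gene body of the GRCm38 gene table by at least 1 base, and every gene it overlapped had to hold at most 2 such peaks. This left 3574 of 9151 listed peaks (39.1%), or 50.8% of the 7042 wild-type-only peaks on these chromosomes. The other wild-type-only peaks lay in genes with 3 or more such peaks (1347) or outside gene bodies (2121), while 1151 listed peaks were called in knockout only and 956 in both genotypes. The peaks listed are part of longer call sets: the numbers in the names go up to 12299 for knockout, with 2107 listed, and up to 56360 for wild type, with 8000 listed, and the sources used here do not say how the listed ones were chosen. The 1 or 2 peaks of a gene, and every total of listed peaks, therefore count listed peaks only.

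The cells were mouse macrophages at passage 0 with the genotype Tet2 knockout or wild type, all treated with M-CSF, which sustains macrophages and their precursors in culture. DNA enriched for 5hmC was sequenced in 2 libraries of Tet2 knockout and 2 of wild type, and ribosome-depleted total RNA in 2 libraries of Tet2 knockout and 3 of wild type. The labels give neither the allele or deleted part of Tet2, nor the strain, the age, the tissue the cells were grown from, or whether libraries came from separate animals, so a p-value here covers the spread among these libraries and no more, and that spread may be technical.

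TET enzymes oxidise 5-methylcytosine in DNA to 5-hydroxymethylcytosine (5hmC), a step toward removal of the methyl group that also persists as a mark of its own. TET2 is the most studied of the 3 TET proteins in blood cells, where its loss is common in clonal haematopoiesis and myeloid leukaemia. In mammalian cells 5hmC is typically found along the bodies of expressed genes and at enhancers, and is low at CpG-rich promoters. The study's title concerns TET2, RUNX1 and the formation of osteoclasts, the bone-resorbing cells that arise from the macrophage lineage.

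Few of the regions overlapped a promoter window, and how many would do so by even placement along the genes was not computed. Of the 3574 peaks, 51 overlapped 55 promoter windows of 52 genes, where a window runs from 250 bases before to 50 bases after a start in RefSeq's table for GRCm38.p6. Few of these windows were rich in CG dinucleotides, the main sites of DNA methylation and of its oxidation by TET enzymes: the median was 6 per window, against 7 over all 32851 windows, and 10.9% had 10 or more, against 43.5% of all windows. The 6 letters TGTGGT, a form of the core motif of RUNX proteins, were present on either strand in 15 of the 55 windows (27.3%) and in 5506 of all windows (16.8%). These shares describe the windows, and a match is not a binding site. By symbol, most of the overlapped windows belonged to predicted or clone-named genes. The share of such genes among all windows was not counted. How far the differences in CG and TGTGGT rest on the mix of genes was not tested. Predicted and clone-named genes were left out of the windows shown, although 6 of them had peaks with more wild-type 5hmC than Tm4sf19. Of the other genes, the 5 windows whose peaks had the highest wild-type 5hmC are printed here, read 5′ to 3′ on the strand of the gene, with every CG in capitals, because they show how far such a window can be from, or near to, a CpG-rich promoter.
Slc17a8: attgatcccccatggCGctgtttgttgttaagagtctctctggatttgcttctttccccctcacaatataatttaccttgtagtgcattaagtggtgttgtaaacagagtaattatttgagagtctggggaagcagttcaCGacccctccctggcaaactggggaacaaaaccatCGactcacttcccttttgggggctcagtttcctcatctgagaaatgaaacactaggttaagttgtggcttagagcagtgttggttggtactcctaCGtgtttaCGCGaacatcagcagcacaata
Tm4sf19: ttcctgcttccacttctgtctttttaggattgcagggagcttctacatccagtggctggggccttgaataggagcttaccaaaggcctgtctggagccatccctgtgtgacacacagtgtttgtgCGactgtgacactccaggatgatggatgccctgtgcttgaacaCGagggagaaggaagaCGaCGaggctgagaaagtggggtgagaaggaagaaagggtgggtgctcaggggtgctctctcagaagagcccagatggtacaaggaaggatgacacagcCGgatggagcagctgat
Shld1: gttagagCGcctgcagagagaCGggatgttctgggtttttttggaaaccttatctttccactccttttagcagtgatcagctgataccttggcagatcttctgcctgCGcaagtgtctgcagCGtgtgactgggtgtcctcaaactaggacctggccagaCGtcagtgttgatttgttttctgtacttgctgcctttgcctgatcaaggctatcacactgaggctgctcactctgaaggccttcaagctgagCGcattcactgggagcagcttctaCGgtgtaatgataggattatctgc
Csf2ra: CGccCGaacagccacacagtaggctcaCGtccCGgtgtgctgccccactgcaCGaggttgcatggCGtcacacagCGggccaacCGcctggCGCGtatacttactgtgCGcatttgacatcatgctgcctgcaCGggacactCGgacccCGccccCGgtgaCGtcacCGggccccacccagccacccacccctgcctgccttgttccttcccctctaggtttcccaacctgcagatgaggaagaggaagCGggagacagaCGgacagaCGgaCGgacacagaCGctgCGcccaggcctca
Fastkd1: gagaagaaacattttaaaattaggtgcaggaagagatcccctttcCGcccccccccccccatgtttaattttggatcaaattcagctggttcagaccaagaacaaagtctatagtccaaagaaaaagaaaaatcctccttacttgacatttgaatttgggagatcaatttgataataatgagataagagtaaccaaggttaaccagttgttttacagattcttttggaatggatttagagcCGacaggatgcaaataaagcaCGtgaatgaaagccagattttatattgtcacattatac
The Slc17a8 window (chr10:89599766-89600065, minus strand) had 6 CG, and Slc17a8 encodes a vesicular glutamate transporter. The Tm4sf19 window (chr16:32400256-32400555, plus strand) had 5, the Shld1 window (chr2:132689907-132690206, plus strand) had 7 and the Fastkd1 window (chr2:69712557-69712856, minus strand) had 3. Shld1 encodes a subunit of the shieldin complex of DNA repair, and Fastkd1 a mitochondrial RNA-binding protein. The Csf2ra window (chr19:61228369-61228668, minus strand) stood apart with 23 CG and lay entirely inside its peak. Csf2ra encodes the alpha chain of the GM-CSF receptor of myeloid cells. None of the 5 windows held TGTGGT.

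These 5 promoter peaks did not behave alike in 5hmC. The Shld1 peak (chr2:132689655-132690069) had 1 count in each knockout library, against 6 and 38 in wild-type replicates 1 and 2. The Slc17a8 peak (chr10:89599499-89599991) had 3 and 3 counts in knockout, against 13 and 41 in wild type. The Tm4sf19 peak (chr16:32400336-32400894) had 8 and 7 in knockout, against 7 and 51 in wild type, the Fastkd1 peak (chr2:69712118-69712584) 4 and 4, against 4 and 43, and the Csf2ra peak (chr19:61228369-61228822) 9 and 8, against 7 and 31. Wild-type replicate 2 held far more counts than the other libraries, so peaks are compared after division by the library totals. Per 100000 counts in listed peaks, the mean of the knockout libraries was 19.2 at Csf2ra, against 15.3 for wild type, and 2.25 at Shld1, against 15.7.

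The depth sets how far single peaks can be read. The 2 knockout libraries held 46230 and 42489 counts in all listed peaks, and the wild-type libraries 42678 and 219116. The RNA libraries held 16053426 and 25479447 counts in genes for knockout, and 17569441 to 56394358 for wild type. Counts per peak in the knockout 5hmC libraries lay closer together than sampling noise: over 2131 listed peaks the chi-square was 0.578 times its degrees of freedom (p = 1.02e-60 for so low a value), against 1.65 times over 3005 peaks between the wild-type libraries. Within the 3574 peaks the chi-square was 0.579 times its degrees of freedom between the knockout libraries (1865 peaks) and 0.937 times between the wild-type libraries (3574 peaks). The listed peaks were filtered on an expected count of at least 5 in both libraries, the 3574 on a summed count of at least 5. The values of the 2 sets are therefore not like for like. At the low counts of the 3574 peaks, 0.937 cannot show whether the wild-type libraries differ beyond sampling noise. The knockout pair differed by less than the sampling noise in both sets and counts as 1 sample, although the value of each library is given. Whole-gene Tet2 RNA in CPM (counts per 1000000 in the gene table) was 232 and 126 in libraries labelled knockout, against 86.2, 144 and 41.6 in wild type, and so did not separate the genotypes. All 9 macrophage markers stood above 1 CPM in every RNA library. Summed stromal and osteoblast markers were at 5378 CPM in wild-type replicate 3 and at 7.29 to 18.2 CPM in the other 4 libraries, and summed B cell markers at 24.7 and 11.9 CPM in knockout and at most 2.88 CPM in wild type. Summed dendritic cell markers, of which Flt3 and Zbtb46 were hosts of such peaks, were at 16.1 and 6.99 CPM in knockout, against 2.11 to 3.86 CPM in wild type, and summed megakaryocyte markers, of which Vwf was a host, at 46.7 and 38.6 CPM, against 85.6 to 208 CPM. Summed granulocyte markers varied within both genotypes, from 1.56 to 155 CPM over the 5 libraries. Summed osteoclast markers, of which Oscar was a host, varied within both genotypes too. They were at 27.8 and 152 CPM in knockout, against 35.1, 109 and 49.1 CPM in wild type. What these cells contribute to the 5hmC libraries was not tested.

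The 3574 peaks were spread thinly over 3237 genes: 2670 genes held 1 and 567 held 2. Of the genes, 2590 code for proteins and 586 are long noncoding RNAs. Most peaks (3347) had 1 host gene, 226 had 2 and 1 had 3, and 547 peaks had only predicted genes or pseudogenes as hosts. Peaks were 240 to 1212 bases wide, with a median of 372. The protein-coding host genes were long, at a median of 53.9 kb against 17.1 kb for all protein-coding genes of the table. A longer gene is more readily overlapped by a peak wherever peaks fall, and this was not corrected for. Taking the longest host of each peak, the median was 54.5 kb, against 193 kb for the wild-type-only peaks in genes with 3 or more. The rule on peaks per gene bears on this difference. Where a gene held 2 peaks, they lay a median of 23.4 kb apart. Exons and introns could not be assigned, because the gene table used here gives gene bounds alone.

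All peaks overlapped a gene body by the rule, so only their place along the gene is described. A start was listed for the host of 2863 peaks, and 77.6% of those lay over 5 kb from the nearest start, at a median distance of 16.5 kb. The share that even placement along genes of this length would give was not computed. The first 20% of the gene's length held 20.7% of the peaks with a position, close to an even spread along the gene. Of the protein-coding host genes in the RNA table, 72.9% had a mean of 10 CPM or more in wild type, against 42.1% of all protein-coding genes, and 7.81% were under 0.1 CPM, against 36.2%. These are RNA counts not divided by gene length, and long genes collect more counts at the same level.

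The counts in single peaks were small. The median peak had 2 counts in each knockout library, against 4 in wild-type replicate 1 and 22 in wild-type replicate 2. No count at all was found in 499 peaks (14.0%) in knockout replicate 1 and in 526 (14.7%) in replicate 2, against 73 (2.04%) in wild-type replicate 1 and 0 in replicate 2, whose lowest value was 8. In 258 peaks (7.22%) both knockout libraries had 0 counts, which allows up to 6.49 and 7.06 per 100000 counts in listed peaks (3 counts per library, counting error only). Per 100000 counts, both knockout libraries lay below both wild-type libraries in 2081 peaks (58.2%), beside 47.5% of all listed peaks, and the knockout mean lay above the wild-type mean in 491 (13.7%), beside 29.7%. The rule used this contrast, so these counts describe how the peaks were chosen and are not a test of the genotype.

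**Figure D1:**
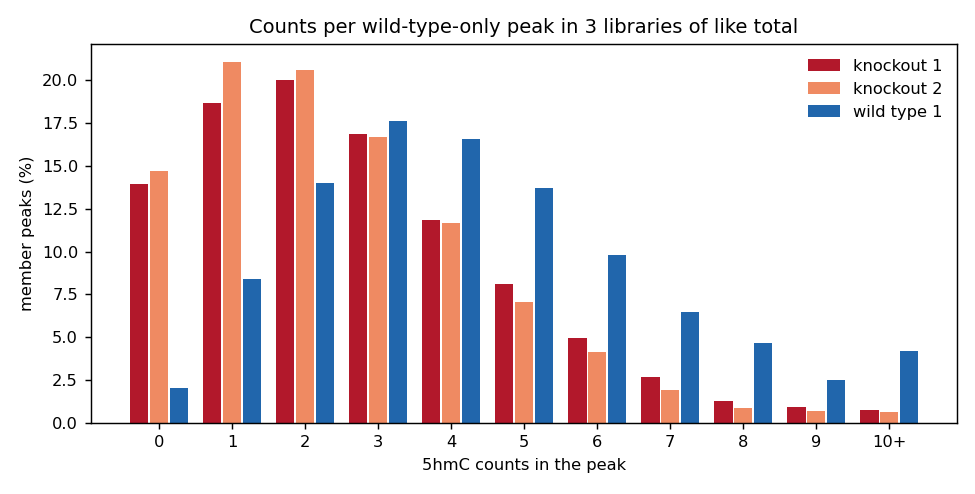
Share of the 3574 wild-type-only peaks (y axis, percent) by the number of 5hmC counts in the peak (x axis, the last bar holds 10 or more) in both knockout libraries and in wild-type replicate 1, whose totals are alike (46230, 42489 and 42678 counts). Peaks without a count made up 14.0% and 14.7% in knockout, against 2.04% in wild-type replicate 1.

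Summed over all 3574 peaks, the knockout libraries held 9753 and 9031 counts, against 15598 and 85657 in wild type. This was 21097 and 21255 per 100000 counts in listed peaks in knockout, against 36548 and 39092 in wild type, a ratio of knockout to wild type of 0.560 with 0.540 to 0.582 over the 4 pairs of libraries. The ratio was 0.506 for wild-type-only peaks in genes with 3 or more and 0.534 outside gene bodies, whereas it was 2.0 for peaks called in both genotypes and 3.86 for knockout-only peaks. Because those last 2 groups take up more of the knockout totals, the size of the ratio depends on the denominator. It was 0.276 per count in peaks called in both genotypes, 0.228 per count in all listed peaks other than wild-type-only ones, and 0.097 per count in unplaced contigs and mitochondrial DNA. Nearest to the limit of the rule, the ratio was 0.566 with 1 peak in the gene, 0.548 with 2, 0.525 with 3, 0.492 with 4 and 0.488 with 5 or more.

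The highest wild-type levels were found in peaks of genes with varied roles. The peak in Iqgap1, a scaffold of the actin cytoskeleton, (chr7:80775228-80775883) had 9 and 7 counts in knockout, against 19 and 81 in wild type. The peak in Kctd19 (chr8:105393275-105394220) had 12 and 6, against 19 and 78, although Kctd19 RNA was at a mean of 0.078 CPM in wild type. The peak in Pip5k1a, a kinase that makes a membrane phosphoinositide, (chr3:95066139-95067035) had 13 and 10, against 17 and 81. In these 3 both knockout libraries lay below both wild-type libraries once divided by the totals. The peak in Itgb5, an integrin beta chain, (chr16:33885584-33886112) had 6 and 6 counts in knockout, against 12 and 89 in wild type. The peak in Amz2, a putative metalloprotease gene, (chr11:109434191-109434708) had 9 and 4, against 15 and 62. The peak in E2f2, a transcription factor of the cell cycle, (chr4:136186262-136187314) had 9 and 15, against 13 and 86, and its genotypes overlapped per 100000 counts, at 19.5 and 35.3 in knockout against 30.5 and 39.2 in wild type.

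Some of the wild-type-only peaks were not lower in knockout. Calls were made on merged libraries of each genotype. Wild-type replicate 2 held 219116 counts in listed peaks, against 46230 and 42489 in the knockout libraries. A peak without a knockout call can thus still hold knockout counts, and how far the calls rest on depth was not tested. The peaks named here were chosen for the highest knockout levels, predicted genes aside, so a high knockout value is part of the choice. The peak in Ptp4a2, which encodes a phosphatase of the PRL family, (chr4:129818485-129819130) had 34.6 and 30.6 per 100000 counts in knockout, from 16 and 13 counts, against 11.7 and 20.5 in wild type, from 5 and 45 counts. The peak in Tbk1, a kinase of antiviral signalling, (chr10:121582724-121583410) had 26.0 and 28.2 in knockout, from 12 and 12 counts, against 11.7 and 19.2 in wild type, from 5 and 42 counts. In both peaks each knockout library lay above each wild-type library. The peak in Ets2, a transcription factor, (chr16:95708244-95709243) had 34.6 and 23.5 per 100000 counts in knockout, against 21.1 and 29.2 in wild type. The peak in Pik3r5, a regulatory subunit of PI3-kinase gamma, (chr11:68448218-68448682) had 32.4 and 21.2, against 25.8 and 27.8. The genotypes overlapped in both. The peak in Commd10 (chr18:46962570-46963747), with 32.4 and 18.8 in knockout against 21.1 and 28.3 in wild type, overlapped too.

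**Figure D2:**
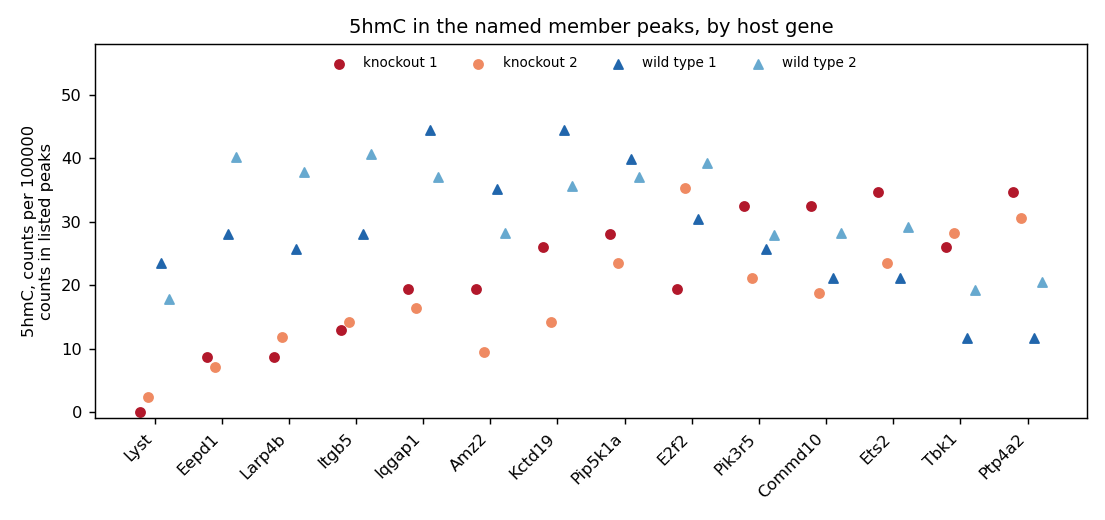
5hmC in 14 named wild-type-only peaks, labelled by host gene, in counts per 100000 counts in listed peaks (y axis), with 1 point per library, knockout circles left of wild-type triangles. Peaks are ordered by the ratio of knockout to wild type: Lyst and Eepd1 stand lowest at the left, and in Tbk1 and Ptp4a2 both knockout libraries lie above both wild-type libraries.

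A test of each peak could be made for few of them. The edgeR quasi-likelihood test was fitted on the whole list, where the filter on low counts kept 859 of 9151 peaks, 198 of them among the 3574 (5.54%). Of those 198, 6 were called lower in knockout and 0 higher at a Benjamini-Hochberg adjusted p of 0.05 beside 1.75% called lower and 17.9% called higher among all peaks tested. At an unadjusted p under 0.05, 26 were lower and 0 higher, beside 8.15% and 22.9% of all peaks tested. The rule used this contrast, so nothing is read from these counts. The called peaks are described by their counts alone. The peak in Eepd1, an LXR target involved in cholesterol efflux and DNA repair, (chr9:25570023-25570861) had 4 and 3 counts in knockout, against 12 and 88 in wild type. The peak in Larp4b, an RNA-binding protein, (chr13:9149283-9150484) had 4 and 5, against 11 and 83. The peak in Lyst, the lysosomal trafficking regulator mutated in Chediak-Higashi syndrome, (chr13:13637659-13638384) had 0 and 1 counts, against 10 and 39, a ratio of pooled counts of 0.0602 with an exact interval of 0.00149 to 0.352 (counting error only). In these 3 peaks both knockout libraries lay below both wild-type libraries. The other 3 called peaks had only predicted genes as hosts.

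The number called moved with the handling of the libraries. Without knockout replicate 1 it was 29 and without knockout replicate 2 it was 15, all lower in knockout, and edgeR with total-count scaling called 0. DESeq2 called 0, beside 0% of all peaks called lower and 0.776% called higher, and had 8 lower and 0 higher of unadjusted p under 0.05, beside 0.24% and 2.62% of all peaks. The scaling itself mattered, as the median log2 of all tested peaks was -0.25 with TMM scaling, -1.29 with total counts and -0.06 with DESeq2 size factors. The median over the 198 tested peaks was -0.93, -1.99 and -0.74 in these fits.

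The genes of the TET enzymes were themselves hosts of such peaks, with 1 each. The peak in Tet2 (chr3:133532150-133532451) had 0 counts in both knockout libraries, against 3 and 18 in wild type. The peak in Tet1 (chr10:62808325-62808683) had 0 and 0, against 1 and 16. For both genes the knockout zeros allow up to 6.49 and 7.06 per 100000 counts, and wild type was at 7.03 and 8.21 at Tet2 and at 2.34 and 7.30 at Tet1, so at this depth neither peak can tell the genotypes apart in every library: wild-type replicate 1 lay under the 7.06 that the zero of knockout replicate 2 allows in both peaks. The peak in Tet3 (chr6:83435225-83435575) had 2 and 3 counts in knockout, against 6 and 27 in wild type, or 4.33 and 7.06 against 14.1 and 12.3 per 100000 counts.

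The ratio of knockout to wild type differed with the length of the host gene. It was 0.633 for 637 peaks in genes under 20 kb, 0.594 for 1035 peaks at 20 to 50 kb, 0.535 for 918 at 50 to 100 kb, 0.50 for 633 at 100 to 200 kb, 0.490 for 248 at 200 to 400 kb and 0.491 for 103 at 400 kb or more. The ranges over the 4 library pairs were 0.614 to 0.653 in the shortest genes and 0.466 to 0.517 in the longest, which do not overlap. Because the knockout pair counts as 1 sample, these ranges hold no spread between knockout samples. Genes under 20 kb took 20.7% and 20.8% of the counts of the 3574 peaks in the knockout libraries, against 18.5% and 18.2% in the wild-type libraries. Genes of 100 to 200 kb took 15.5% and 15.8% in knockout, against 17.5% and 17.6% in wild type. These shares need no outside denominator, and in both size classes the genotypes did not overlap. They still come from the contrast that chose the peaks and are given as a description.

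Outside the 3574 peaks the order by length was mixed. In wild-type-only peaks of genes with 3 or more, which were called in the same way, the ratio was 0.569 under 100 kb and 0.445 at 400 kb or more. In peaks called in both genotypes it was 1.46 under 20 kb and 1.18 at 400 kb or more. In knockout-only peaks it was 4.03 under 20 kb, 2.97 at 100 to 200 kb and 4.33 at 400 kb or more, and so had no single order.

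The distance from the gene start went with the ratio as well. Peaks 1 to 5 kb from a start had a ratio of 0.696 (516 peaks, 0.665 to 0.730 over the library pairs), those at 5 to 20 kb 0.575, those at 20 to 50 kb 0.524, those at 50 to 100 kb 0.455 and those at 100 kb or more 0.491. Peaks within 1 kb of a start had 0.560 (124 peaks). Along the gene, the first 20% of its length had 0.649, and each later stretch of 20% had 0.509 to 0.565. Among peaks over 5 kb from a start, the ratio was 0.578 in genes under 20 kb, 0.585 at 20 to 50 kb, 0.525 at 50 to 100 kb, 0.475 at 100 to 200 kb, 0.498 at 200 to 400 kb and 0.466 at 400 kb or more. Within 5 kb of a start it did not fall with length in the same order, at 0.674 under 20 kb (278 peaks), 0.680 at 20 to 50 kb (222), 0.576 at 50 to 100 kb (88) and 0.751 at 100 to 200 kb (41 peaks, 0.678 to 0.830). The ratio in the shortest genes was 1.24 times that in the longest among the peaks over 5 kb from a start, and 1.29 times among all peaks of the rule. Peak width did not order the ratio, at 0.542 under 300 bases, 0.565 at 300 to 400, 0.550 at 400 to 600 and 0.586 at 600 or more. Within each width class, genes under 50 kb had 0.597 to 0.647 and genes of 100 kb or more 0.473 to 0.510.

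The RNA level of the host gene went with the ratio too. Taking the mean CPM of the wild-type libraries, it was 0.499 for 309 peaks under 0.1 CPM, 0.484 for 242 peaks at 0.1 to 1 CPM, 0.541 for 383 at 1 to 10 CPM and 0.585 for 2282 at 10 CPM or more. In short genes the difference was wide: under 20 kb the ratio was 0.689 at 1 CPM or more (353 peaks, 0.671 to 0.707) and 0.539 below 1 CPM (117 peaks, 0.499 to 0.583). At 20 to 50 kb it was 0.632 for the genes at 1 CPM or more and 0.469 for those below. At 50 to 100 kb it was 0.551 (750 peaks, 0.536 to 0.567) against 0.481 (115 peaks, 0.435 to 0.530). At 100 to 200 kb the same values were 0.502 and 0.499, at 200 to 400 kb 0.496 and 0.459, and at 400 kb or more 0.491 and 0.503, with overlapping ranges over the library pairs in these 3 classes. Peaks with a protein-coding host had 0.569, those in long noncoding RNA genes without one 0.519, and the 39 with other hosts only 0.380.

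**Figure D3:**
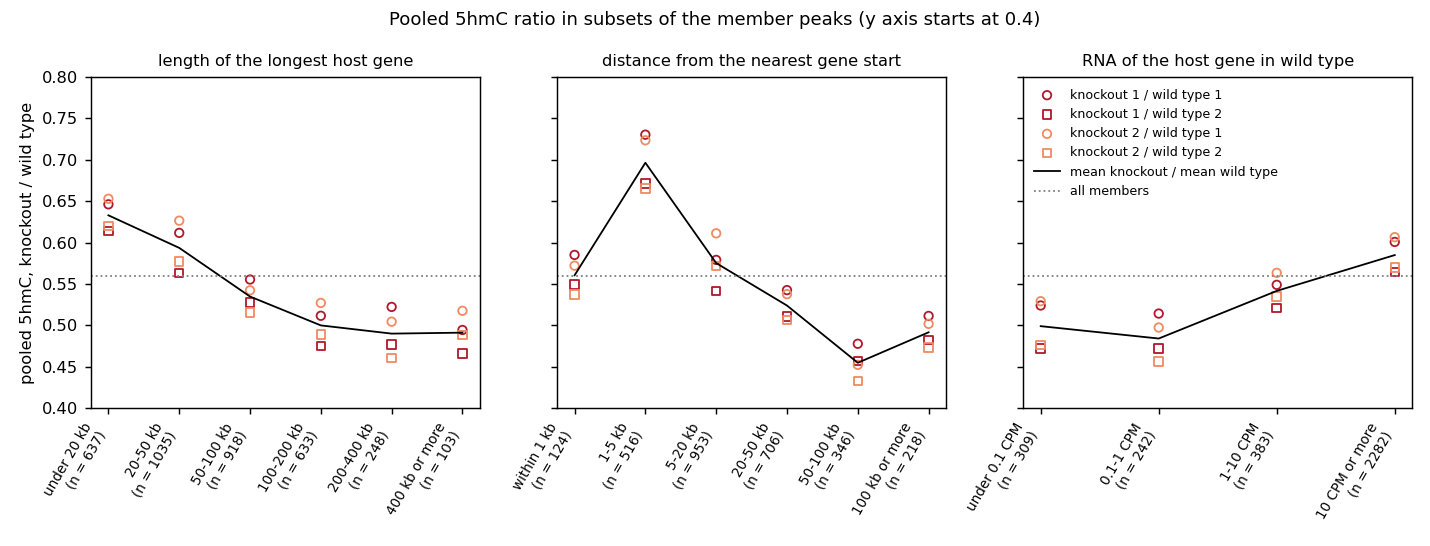
Ratio of summed 5hmC in knockout over wild type (y axis, starting at 0.4) for subsets of the 3574 peaks by length of the longest host gene, distance from the nearest gene start and wild-type RNA level of the host gene (x axes, number of peaks in brackets). Open symbols are the 4 pairs of libraries, the line is the mean over libraries and the dotted line is the 0.560 of all peaks; the ratio is 0.633 in genes under 20 kb and 0.491 at 400 kb or more, and 0.696 at 1 to 5 kb from a start.

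By function, the lists of host genes lay around the value of all peaks. The 24 lists are families of gene symbols, macrophage genes, osteoclast and RANK pathway genes, and predicted genes, and 1789 peaks belonged to none. In 7 lists the share of counts was higher in both knockout libraries than in both wild-type libraries, in 5 it was lower in both, and in 12 the genotypes overlapped. Since every list was read from the contrast that chose the peaks, no list was tested. The families follow the starts of gene symbols, so they hold some genes of another kind, such as Gpatch8, a G-patch gene, under lipid metabolism and Rab10os, a long noncoding RNA, under small GTPases.

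The list of small GTPases, the molecular switches of membrane traffic and the cytoskeleton, had a ratio of 0.718 (30 peaks, 0.645 to 0.794 over the library pairs). Without the 7 peaks whose hosts only share the symbol it was 0.743, a set chosen after the values were seen. The 30 peaks held 129 and 101 counts in knockout, against 150 and 807 in wild type. Examples are Rab39, with 8 and 8 counts in knockout against 11 and 49 in wild type (chr9:53695707-53696454), and Arl5a, with 7 and 7 against 8 and 51 (chr2:52420056-52420580). ATP-driven pumps and ABC transporters followed at 0.709 (28 peaks), although the 2 with the highest wild-type level were lower than that, with 3 and 2 counts against 11 and 41 at Atp2b1, the plasma membrane calcium pump, and 5 and 3 against 14 and 41 at Abca6. Phosphatases had 0.623 (48 peaks), zinc finger genes 0.620 (50), protein and lipid kinases and chromatin regulators 0.593 each (93 and 57), immune receptors and cytokines 0.589 (94) and RNA-binding and translation genes 0.587 (73).

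Among lists with 20 or more peaks, those with the lowest ratios were close to each other. Chemosensory receptors stood lower, at 0.467, but held only 4 peaks. Lipid metabolism had 0.481 (59 peaks, 0.449 to 0.513), or 0.488 without the 3 peaks in G-patch genes. Its 59 peaks held 141 and 144 counts in knockout, against 282 and 1488 in wild type, and its shares did not overlap. The peak in Alox5ap, which presents arachidonic acid for leukotriene synthesis, (chr5:149284244-149284890) had 3 and 5 counts, against 13 and 69. The peak in Soat1, which esterifies cholesterol, (chr1:156470306-156470681) had 1 and 3, against 15 and 40. Both peaks were lower in each knockout library than in either wild-type library. Ion channels had 0.483 (33 peaks, 0.398 to 0.569), with shares that overlapped. Solute carriers had 0.504 (72), membrane traffic genes 0.510 (74) and regulators of small GTPases 0.511 (75), each with shares that did not overlap. In membrane traffic, the peak of the oxysterol-binding protein gene Osbpl3 (chr6:50378583-50379000) had 2 and 2 counts, against 15 and 48. Sequence-specific transcription factors (0.564, 74 peaks), the ubiquitin pathway (0.565, 90) and cytoskeleton and motor genes (0.556, 93) were close to all peaks, although Usp18 in the ubiquitin list, a protease that removes the interferon product ISG15, had 1 and 0 counts against 8 and 39 (chr6:121246822-121247280).

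**Figure D4:**
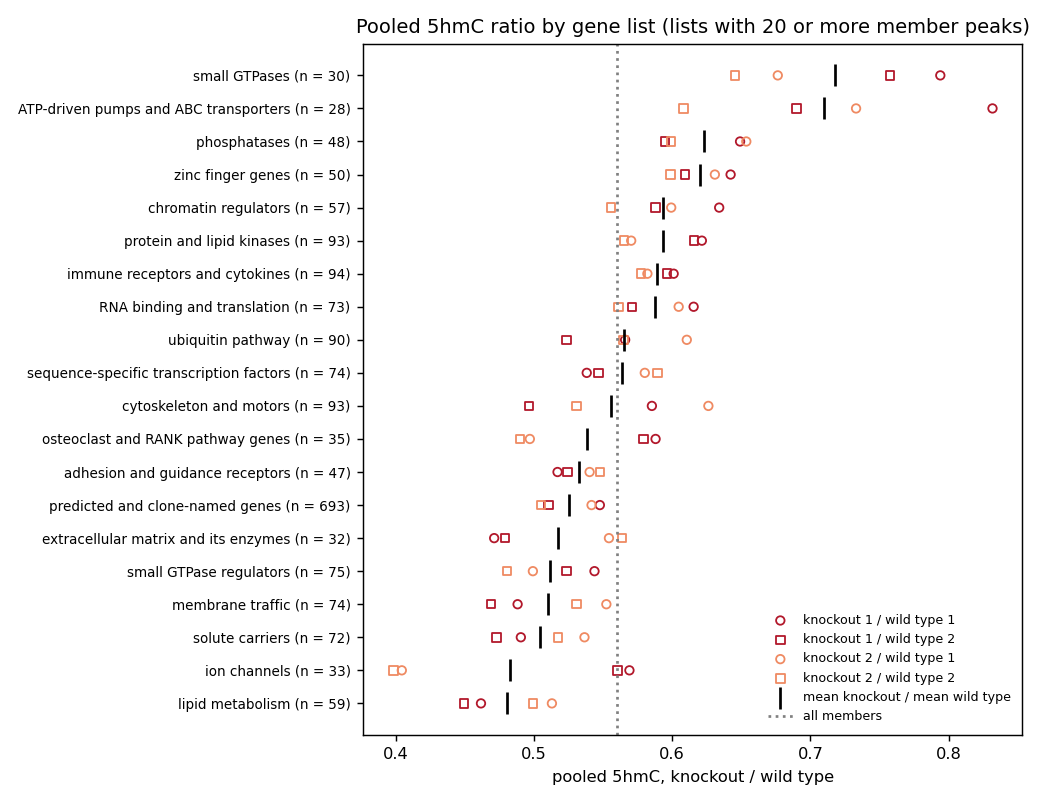
Ratio of summed 5hmC in knockout over wild type (x axis) for the gene lists with 20 or more of the 3574 peaks (rows, number of peaks in brackets). Open symbols are the 4 pairs of libraries, the black mark the mean and the dotted line the 0.560 of all peaks; small GTPases stand at 0.718 and lipid metabolism at 0.481.

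Genes that define macrophages were among the hosts. The macrophage list has 44 genes in the RNA table, and 14 of its genes were hosts, with 17 peaks and a ratio of 0.630 (0.514 to 0.779). Both knockout libraries lay below both wild-type libraries in 10 of the 17 peaks (58.8%), beside 58.2% of all 3574. At Abcg1, which exports cholesterol to high-density lipoprotein, the peak had 6 and 6 counts in knockout against 5 and 64 in wild type (chr17:31066978-31067723), or 13.0 and 14.1 per 100000 counts in knockout against 11.7 and 29.2 in wild type, which overlapped. At Tlr4, the receptor of lipopolysaccharide, the peak had 0 and 1 against 5 and 17 (chr4:66830528-66830843). At Abca1, the cholesterol exporter, it had 12 and 7 against 8 and 42 (chr4:53124722-53125255), or 26.0 and 16.5 per 100000 counts in knockout against 18.7 and 19.2 in wild type, which overlapped. At Spi1, the master transcription factor PU.1 of the myeloid lineage, it had 6 and 5 against 5 and 35 (chr2:91095910-91096301). Of these, Tlr4, Abca1 and Spi1 were named after their values were seen.

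The osteoclast and RANK pathway list has 75 genes in the RNA table, and 26 of its genes were hosts, with 35 peaks and a ratio of 0.538 (0.490 to 0.588). The list includes Tet2. Both knockout libraries lay below both wild-type libraries in 23 of the 35 (65.7%), beside 58.2% of all 3574 and 47.5% of all listed peaks. The difference between these shares was not tested. In Tcirg1, a subunit of the proton pump of the resorbing cell, the peak had 9 and 5 counts in knockout, against 10 and 48 in wild type (chr19:3904132-3904678). In Pxn, the adhesion protein paxillin, it had 6 and 1, against 10 and 45 (chr5:115513714-115514076). The peak of Tnfrsf11a, the RANK receptor, had 6 and 2 counts, against 7 and 23 (chr1:105795759-105796092). Per 100000 counts this was 13.0 and 4.71 in knockout against 16.4 and 10.5 in wild type, which overlapped. The peak of Ikbkb, a kinase that activates NF-kappaB, had 1 and 2, against 10 and 35 (chr8:22693152-22693742). In Map3k7, the TAK1 kinase of the same pathway, 1 peak had 11 and 10 counts in knockout, against 4 and 38 in wild type (chr4:31966866-31967601), which is 23.8 and 23.5 per 100000 counts, against 9.37 and 17.3, and so was higher in each knockout library. The 2 peaks of Syk, the kinase downstream of ITAM receptors, differed, with 1 and 1 counts against 6 and 27 (chr13:52594784-52595116) and 7 and 3 against 2 and 26 (chr13:52636425-52636877). Per 100000 counts the latter peak had 15.1 and 7.06 in knockout against 4.69 and 11.9 in wild type, which overlapped. Tnfrsf11a, Ikbkb, Map3k7 and Syk were named after their values were seen.

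The RNA of the host genes was not used by the rule and could be tested. Of the 3237 host genes, 2801 (86.5%) were matched in the RNA table, and 2328 passed the filter on low counts. In the edgeR fit of all 14851 tested genes, 0 host genes were called, beside 0.0135% of all genes called higher and 0% called lower. With an unadjusted p under 0.05, 161 host genes stood higher and 241 lower in knockout, beside 5.95% and 7.86% of all tested genes. The median log2 difference was -0.03 for host genes and -0.03 for all tested genes. DESeq2 called 97 host genes higher and 143 lower of 2658 tested, beside 2% and 2.84% of all genes. Those shares are over 25558 tested genes, against 14851 in edgeR, and protein-coding host genes more often had 10 CPM or more. Hosts and all genes are therefore not like for like in DESeq2, and their difference was not tested. The limma-voom fit called 0, beside 0.00673% of all genes called higher and 0% lower. Its unadjusted p was under 0.05 for 178 host genes that stood higher and 210 that stood lower, beside 6.57% and 6.07% of all tested genes. In bulk RNA, fewer cells of a type and less RNA per cell cannot be told apart.

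Without regard to a test, the knockout and wild-type libraries did not overlap in 459 host genes that were higher (19.7%) and 514 that were lower in knockout (22.1%), beside 17.2% and 19% of all tested genes. The 5hmC of the peaks did not follow these groups. The ratio was 0.568 for peaks in genes whose RNA was higher without overlap, 0.584 for those lower without overlap and 0.574 for those that overlapped. For hosts with a fitted RNA log2 difference of 1 or more it was 0.544 (191 peaks), for those between -1 and 1 it was 0.582 (2192 peaks) and for those of -1 or less 0.551 (381 peaks).

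By list, host genes are given beside the whole list, which includes them, and the difference between hosts and the rest was not tested. Among lists with 20 or more tested host genes, the median was farthest from 0 in lipid metabolism, where 27 of 40 tested host genes had a lower fitted RNA level in knockout. Their median log2 was -0.54, beside -0.46 over all 183 tested genes of the list, and -0.61 beside -0.53 without the G-patch genes. None of the 40 was called in edgeR, with 3 higher and 10 lower of unadjusted p under 0.05, beside 6 and 38 of the 183. In the list of extracellular matrix and its enzymes the median was -0.34 over 17 tested hosts, beside -0.91 over 78 genes. Stromal and osteoblast markers were at 5378 CPM in wild-type replicate 3 and far lower in every other library. How far the matrix medians rest on that library was not tested. Of 71 tested immune receptor and cytokine hosts 15 were higher and 11 lower at the unadjusted threshold, beside 84 and 69 of the 431 genes of the list. Of 54 regulators of small GTPases 7 were higher and 8 lower, beside 20 and 24 of 187. Of 14 macrophage genes 4 were higher and 2 lower, beside 8 and 11 of 44, and of 25 osteoclast and RANK pathway genes 2 and 2, beside 5 and 8 of 69.

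With 0 host genes called, those named are from the 5 in each direction with the smallest unadjusted p among genes of at least 1 CPM whose genotypes did not overlap, so the lack of overlap is part of the choice. Suco, a membrane protein of the endoplasmic reticulum, had a normalised CPM (on library sizes scaled by TMM) of 420 and 223 in the knockout libraries, against 55.2, 63.2 and 57.9 in the wild-type libraries (fitted log2 2.45 ± 0.31 SE). Its peak (chr1:161834919-161835301) had 4 and 3 counts in knockout, against 2 and 16 in wild type. Sla, an adaptor that dampens receptor kinase signalling, was at 278 and 192, against 54.3, 63.5 and 46.8 (log2 2.10 ± 0.26), and its gene overlaps Tg, so that reads and peak cannot be assigned to 1 of them for certain. Kcnk12, a potassium channel subunit, was at 12.3 and 8.83, against 1.09, 1.27 and 0.685, and Eml2, a microtubule-associated protein, at 79.7 and 58.7, against 14.8, 24.4 and 16.6. The edgeR adjusted p of these 4 was 0.148 to 0.162. The Sla peak (chr15:66795270-66795959) had 5 and 5 counts in knockout, against 10 and 44 in wild type. The Kcnk12 peak (chr17:87781384-87781715) had 5 and 2, against 5 and 17, and the Eml2 peak (chr7:19202874-19203326) 4 and 4, against 1 and 20. Divided by the library totals, the knockout mean lay below the wild-type mean at Sla and Kcnk12, and above it at Suco and Eml2.

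On the other side, Tmem154, a membrane protein gene, had a normalised CPM of 1.71 in each knockout library, against 67.1, 37.3 and 95.7 in the wild-type libraries (log2 -5.28 ± 0.53 SE, edgeR adjusted p = 0.137). Its peak (chr3:84703377-84703640) had 0 and 1 counts, against 6 and 14. Enpp1, the enzyme that makes extracellular pyrophosphate, a blocker of mineral formation, was at 2.14 and 1.79, against 72.7, 21.9 and 67.1 (log2 -4.78 ± 0.67). Its peak (chr10:24641723-24642098) had 2 and 1 counts, against 9 and 15. Gpr176, an orphan receptor, was at 1.65 and 1.98, against 14.7, 11.1 and 20.4, and its peak (chr2:118295489-118295887) had 1 and 3 counts, against 6 and 23. Arhgap6, a GTPase-activating protein that acts on the cytoskeleton, was at 5.86 and 8.30, against 44.0, 36.3 and 30.2, and Rnf150, a RING finger protein, at 16.5 and 26.3, against 96.4, 79.1 and 84.2. The edgeR adjusted p of these last 4 was 0.148 to 0.158. Without any 1 library the fitted direction of each of these named genes was the same, and 0 host genes were called.

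**Figure D5:**
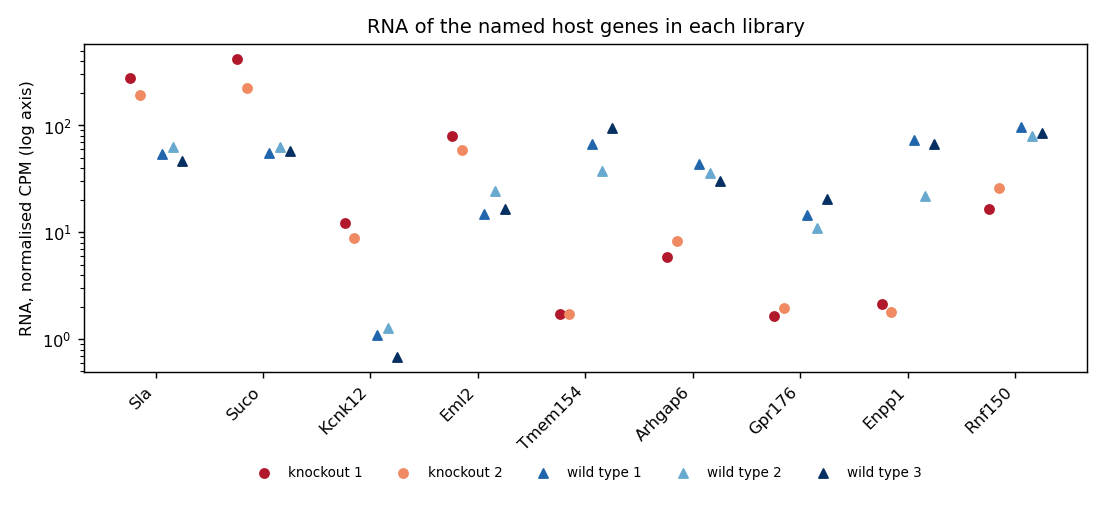
RNA of the named host genes in normalised CPM (y axis, log scale), with 1 point per library, knockout circles left of wild-type triangles. Sla, Suco, Kcnk12 and Eml2 are higher and Tmem154, Arhgap6, Gpr176, Enpp1 and Rnf150 lower in both knockout libraries, as the choice of genes required; none passed the adjusted threshold in edgeR.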

How the data were processed

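The authors deposited raw counts, per peak for 5hmC and per gene for RNA. GRCm38 is the build in the submitters' processing notes, which list MACS2, HTSeq, BWA, STAR, Trim Galore and CASAVA 1.4 without their roles. The sources used here do not state strand setting or duplicate handling. Peak names show calls on merged libraries of each genotype. Regions, gene lists and tests were chosen with earlier results of these data known. Groups follow the submitters' sample labels.

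Gene bodies came from RefSeq (GRCm38.p6). 5hmC sums were divided by each library's counts in listed peaks and multiplied by 100000, and the ratio is the mean of the knockout libraries over the mean of the wild-type libraries, each library weighted equally. Intervals are exact (95%) and cover counting error only. RNA levels are CPM, not divided by length.

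Tests were edgeR 4.0.16 in R 4.3.3 (glmQLFit, glmQLFTest, TMM, filterByExpr, two-sided, Benjamini-Hochberg, threshold 0.05) over each whole table, and were tested on simulated data. For 5hmC the knockout libraries entered as 1 sample, the rounded mean of their counts, so the spread comes from wild type alone. Alternatives were DESeq2 1.42.0, limma-voom (limma 3.58.1), other scalings, filters, denominators and overlaps, a replicate block and leaving out replicates. Alternatives added after seeing the data kept the knockout libraries as 2 samples without a wild-type replicate, summed them without a filter, used only peaks over 5 kb from a start, or left out genes that match 2 of the lists by symbol only.

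Named peaks were the 8 highest in wild type, the 6 highest in knockout, those called (up to 10) and the 2 highest in wild type of each list, of which examples are printed; predicted genes were not named. Named RNA genes were the 5 each way with the smallest p among those averaging 1 CPM or more without overlap. Some of the peaks and genes these rules name are not reported here.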

Additional observations from a re-analysis of the deposited data

How the results depend on the processing

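Few counts limit single peaks: only 198 of the 3574 were tested in edgeR. The 6 called were 42 with the knockout libraries as 2 samples, 101 with them summed, 207 summed without a filter, 10 without a filter, 0 with DESeq2, 0 with total-count scaling and 15 to 29 without 1 knockout replicate. As 2 samples, 54 to 100 were called without a wild-type replicate. With the replicate block and the knockout libraries as 2 samples, 38 were called. The cause of these changes was not tested.

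The ratio of 0.560 was 0.276 per count in peaks called in both genotypes, 0.228 per count in peaks other than wild-type-only and 0.097 per count in contigs and mitochondrial DNA, with 0.542 to 0.579 when a replicate was left out. The ratio in genes under 20 kb over that at 400 kb or more was 1.29, with 1.27 to 1.31 when a replicate was left out and 1.24 over 5 kb from a start. The ratio at 10 CPM or more over that under 0.1 CPM was 1.17, with 1.15 to 1.20. The number of regions was 2459 to 3883 under other overlaps, gene sets and peaks per gene.

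For host RNA, DESeq2 called 240 and every other alternative run, the replicate block included, called 0. Deviations of libraries with the same replicate number correlated at 0.011 and -0.119 in RNA and at 0.0016 in 5hmC. The 5hmC value cannot show whether samples were paired, because the knockout libraries differed by less than sampling noise. Whether samples were paired is not known. RNA per coding length was not run, and the fit of 1 knockout sample against 1 wild-type library has no residual degrees of freedom.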
